A study of Mus musculus with 3 samples.

Results

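The vesicle trafficking and exocytosis machinery was described in neural retinas from wild-type mouse pups of postnatal day 10. Its members were chosen by gene name alone: every non-control probe set with exactly 1 platform gene symbol that begins with the name of a Rab, Arf or Arl GTPase, a VAMP, syntaxin, syntaxin-binding protein, synaptotagmin, synapsin or SNAP-25 relative, NSF or its attachment proteins, a Vps or Sec protein, a coatomer subunit or a clathrin adaptor subunit. This gave 201 of the 12422 non-control probe sets and 153 of the 8251 genes named by such probe sets. A probe set is a group of short probes on an Affymetrix U74Av2 array that gives a single signal for a transcript, and where a gene had several, the set with the highest mean stood for it.

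All 3 samples were RNA pools from the neural retinas of wild-type mice of a mixed 129/SvEv and C57BL/6 background, littermates of Rp1-/- mice, which are not analysed here. Each pool held the retinas of 3 to 4 mice, collected in the hour from 1 to 2 pm. Pools 2 and 3 carry rp1 in their titles, unlike pool 1, but all descriptions name wild-type mice, and the grouping follows the descriptions. Pool numbers follow the order of deposit and only name the samples, and the sources used here do not say whether pools shared mice. With 1 group the design holds no comparison between conditions, so signals, their spread over pools and counts are given without tests. The tissue is mixed, so fewer cells of a type and less RNA per cell cannot be told apart in any difference between pools.

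Membrane traffic moves proteins in vesicles that bud from a donor membrane with the help of coats (COPII at the endoplasmic reticulum, COPI in the Golgi, clathrin with its adaptors beyond it), are directed by Rab and Arf GTPases, and fuse when a vesicle SNARE zips up with SNAREs of the target membrane. NSF and its attachment proteins then take the SNARE complex apart, and at synapses synaptotagmins make fusion depend on calcium. Retinal photoreceptors and bipolar cells release glutamate continuously at ribbon synapses, where syntaxin 3 takes the place that syntaxin 1 has at conventional synapses such as those of amacrine cells. Rods also send large amounts of rhodopsin to the outer segment, a route in which Arf4, Rab8a and Rab11a have been proposed to act.

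A transcript was called above background in a pool when its signal exceeded the 90th percentile of 120 probe sets, covering 101 genes of other tissues such as liver, pancreas, muscle and testis. The limits of pools 1 to 3 were signals of 432.9, 400.4 and 341.6. A gene below it is called not above background, not silent. Markers of the labelled tissue were present: 15 of 16 photoreceptor genes were above the limit in all pools, as were 3 of 4 bipolar, 5 of 10 amacrine and horizontal, 4 of 5 ganglion cell and 6 of 8 Müller glia genes. Pigment epithelium reached it in all pools for 0 of 7 genes, microglia for 1 of 9, endothelium for 1 of 11, red blood cells for 2 of 5 and lens for 8 of 12. Lens genes set pool 2 apart: the 12 summed to signals of 226920, 36745.5 and 423789 in pools 1 to 3, and no marker of any of these lists was at 0. The 3′ to 5′ signal ratio of the Actb controls was 1.20, 1.44 and 1.69 in pools 1 to 3, and that of the Gapdh controls was 0.947, 0.885 and 0.926.

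Most of the trafficking machinery was measurable at this age. Of the 153 genes, 94 (61.4%) were above background in all 3 pools, against 37.6% of all named genes, and 39 (25.5%) were above it in none, against 46.7%. The other members passed in 2 pools (14 genes) or in 1 (6 genes). Among single probe sets the shares were 53.7% of members in all pools against 30.9% of all non-control sets, and 30.3% of members in none against 55%. These shares describe the lists and were not tested. With the limit at the 80th percentile, 23 genes rather than 39 were above it in no pool. The genes above it in no pool had signals from 15.7 to 397.4.

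Families differed in how many of their genes were measurable. Coats, adaptors and sorting complexes had 47 of 64 genes above background in all pools and 9 in none. Small GTPases and their partners had 30 of 50 in all pools and 14 in none, and the vesicle fusion families had 17 of 39 in all pools and 16 in none. Over all named genes 37.6% were above background in all pools and 46.7% in none, and the vesicle fusion families lay near these shares. Synaptotagmins stood at 3 of 12 in all pools and 9 of 12 in none.

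**Figure D1:**
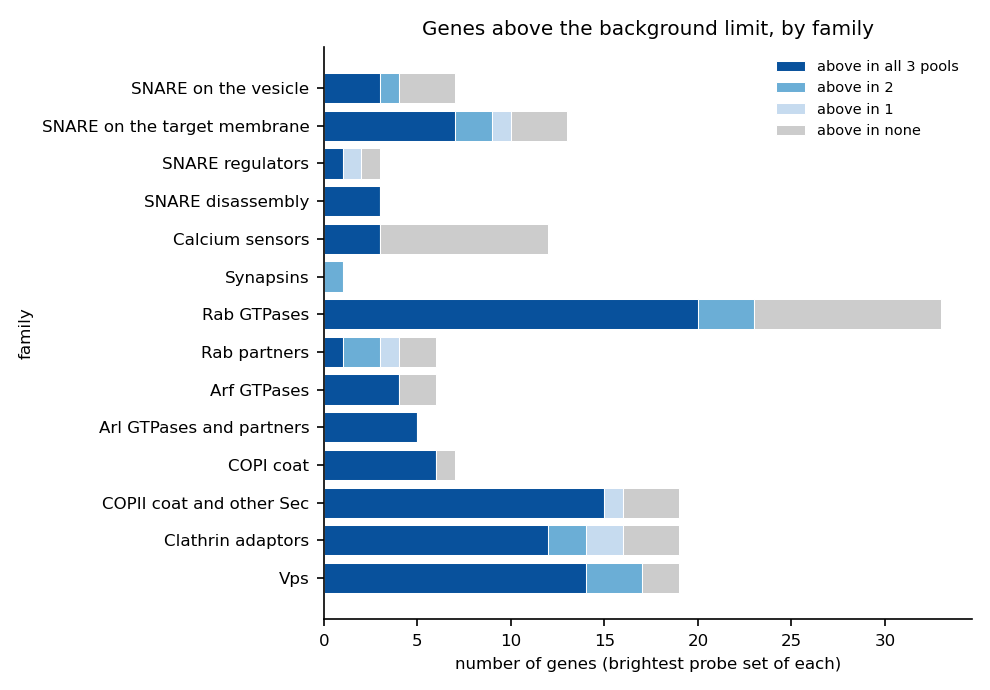
Number of member genes in each of 14 families (bars start at 0, each gene by its brightest probe set), divided by the number of pools in which the signal exceeded the background limit. Rab GTPases form the longest bar, with 20 of 33 genes above in all 3 pools, and synaptotagmins (calcium sensors) have 9 of 12 above in none.

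Among SNAREs of the vesicle, Vamp2, the synaptobrevin of synaptic vesicles, read 5189, 3649 and 4006 in pools 1 to 3, a mean of 4281 ± 806 (SD, n = 3). It was above background in every pool, and a second Vamp2 probe set read 533.7, 544.8 and 546.6. Vamp1, the synaptobrevin better known from spinal cord and neuromuscular junctions, was above the limit in no pool with either probe set (136.8, 189.3 and 195.6 for the brighter). Vamp3, cellubrevin of recycling endosomes, read 299.2, 402.6 and 365.7 and passed in pools 2 and 3 by a narrow margin. Vamp4, a SNARE of the trans-Golgi, read 462.4, 811.9 and 493.3 with its brighter set, with pool 2 apart from the others. Its second set read 323.5, 365.3 and 522.8, highest in pool 3 and above the limit only there. Vamp8, an endosomal SNARE, read 669.2, 865.0 and 1046.2 on a set with the _f_at suffix, which marks possible matches to related transcripts, while its other set was above the limit in no pool.

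SNAREs of the target membrane were above background in all pools for 7 of 13 genes and in none for 3. Snap25, the neuronal plasma membrane SNARE, read 8064, 6430.1 and 9260.1, and Snap23, its counterpart in non-neuronal cells, was not above background in any pool at 152.0, 230.7 and 90.9. Stx3, the ribbon synapse syntaxin, was measured by 3 probe sets and all of them were above background in every pool. They read 1286, 1576 and 1684, 1120.4, 1289 and 1261, and 746.3, 610.3 and 665.6 in pools 1 to 3. Stx1a, the syntaxin of conventional synapses, lay close to the limit at 456.7, 388.9 and 431.2 and fell short of it in pool 2. Levels of Stx3 and Stx1a cannot be ranked, since different probe sets do not share a scale. The endosomal syntaxins Stx7 (1352, 1496 and 1591) and Stx12 (1296, 1365 and 1338) and the Golgi syntaxin Stx6 (528.2, 451.2 and 533.2) were above the limit in all pools. Stx12 varied little between pools, with an SD of 0.038 on the log2 scale. Stx4a, a plasma membrane syntaxin of many cell types, read 208.4, 350.7 and 343.7, and Stx8, an endosomal one, read 397.4, 134.5 and 218.5 and was above the limit in no pool.

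The name rule took 3 regulators of SNAREs, of which 1 was above background in all pools. Stxbp2, a Munc18 protein known from epithelial and blood cell secretion, read 755.5, 459.4 and 555.6, highest in pool 1, whereas its second probe set read 328.4, 428.1 and 110.9, highest in pool 2. Stxbp3, the ubiquitous Munc18, was above background in pool 3 only, at 362.7, 354.4 and 414.4.

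The genes of SNARE disassembly were all above background in every pool. Napa, alpha-SNAP, read 1986, 2574 and 1699, a mean of 2086 ± 446 (SD, n = 3). Napb, the brain-enriched beta-SNAP, read 688.6, 806.1 and 525.2, highest in pool 2, and its other probe set read 704.7, 458.8 and 714.5, lowest in pool 2. The order of the pools thus differed between the sets. Nsf, the ATPase that these adaptors recruit, read 1952, 996.0 and 2178, with pool 2 the low value.

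Among calcium sensors, Syt1, Syt3 and Syt11 were above background in all pools. Syt1, the sensor for fast release, read 2506, 1977 and 1905, Syt11, a synaptotagmin that does not bind calcium, read 858.4, 707.7 and 740.6, and Syt3 read 711.3, 470.4 and 468.6. All 3 were highest in pool 1. A second Syt3 set was above background in no pool, at 44.8, 163.4 and 20.7. Syt2, a fast sensor like Syt1, was above the limit in no pool with either of its sets (216.0, 274.7 and 224.2 for the brighter), nor were Syt4 (154.1, 296.1 and 177.6) and Syt5 (265.4, 120.6 and 134.5). Syn2, the only synapsin with a member probe set, read 453.8, 483.2 and 302.4 and missed the limit in pool 3. Synapsins tether vesicles at conventional synapses and are known to be absent from ribbon terminals.

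**Figure D2:**
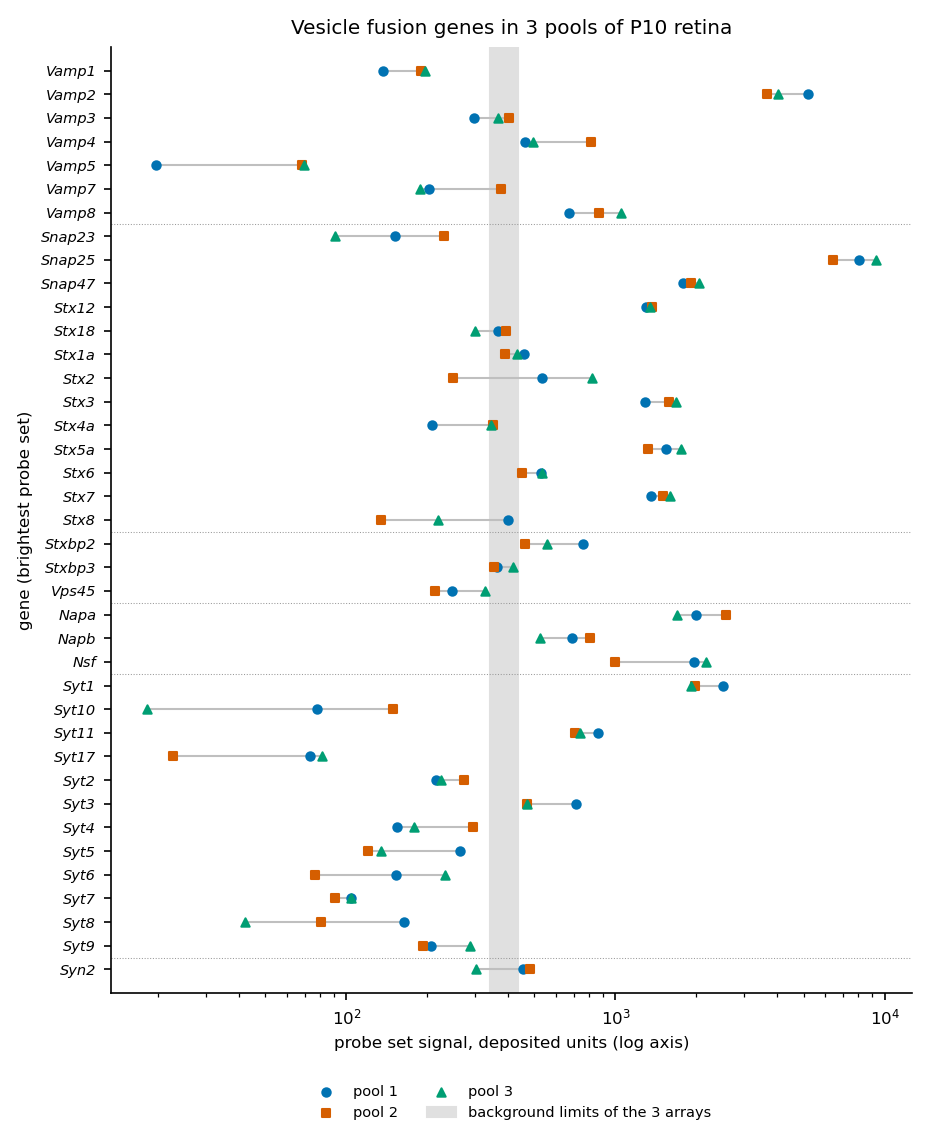
Signal of each vesicle fusion gene in the 3 pools (log axis, deposited units, brightest probe set), with the grey band spanning the background limits of the arrays, 341.6 to 432.9, and dotted lines between families. Vamp2, Snap25, Stx3, Nsf and Syt1 lie to the right of the band in every pool, and 9 of 12 synaptotagmins lie left of their limits.

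Among Rab GTPases, 20 of 33 genes were above background in all pools, 3 in 2 pools and 10 in none. Rab3a, the Rab of synaptic vesicles, read 483.6, 302.3 and 733.2, lowest in pool 2, where it was not above background. Its second probe set, above the limit in no pool, read 30.7, 60.6 and 172.4. Rab3d, a Rab of secretory granules, was above the limit in no pool at 54.8, 82.1 and 46.1. The Rabs proposed for the rhodopsin route were above background in all pools by their brightest sets. Rab8a read 1669, 1532 and 1679, an SD of 0.074 on the log2 scale, and Rab11a read 1489, 1687 and 2034.5, with its second set at 392.9, 575.4 and 336.0. Rab28, a Rab whose loss causes cone-rod dystrophy in people, read 1189, 1699.6 and 1120.3, with pool 2 high. The early endosomal Rab5a (1482.5, 1413 and 1208) and Rab5c (764.9, 779.7 and 912.9), the late endosomal Rab7 (1535, 1457 and 1925) and the Golgi Rab6a (2498, 1619.9 and 2003) were likewise above background in every pool.

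Several Rabs had close values in the 3 pools. Rab14, of Golgi and endosomes, read 3268, 3073 and 3181, Rab12 read 938.7, 914.7 and 975.1, and Rab4b, of recycling endosomes, read 1045.0, 956.8 and 1048.5, with SDs of 0.044, 0.046 and 0.075 on the log2 scale. With Stx12 and Rab8a they are the 5 genes of smallest spread among members above background in all pools, each gene by its brightest set. Rab14 has another 2 probe sets. The first read 224.3, 227.3 and 242.3, above the limit in no pool, and the other read 553.5, 333.4 and 144.8, above it in pool 1 only. Rab10, which acts in transport to the plasma membrane, read 710.2, 1382 and 808.8 with its brighter set and 583.3, 838.2 and 557.0 with the other, and pool 2 was highest in both. Rab18, of lipid droplets and the endoplasmic reticulum, read 1886, 3078 and 2654, and Rab11b read 2210.1, 2095 and 1473.

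Of 6 Arf GTPases, 4 were above background in all pools and 2 in none. Arf1, which recruits coats at the Golgi, read 12503, 11307 and 14565, a mean of 12792 ± 1648 (SD, n = 3). Arf4, reported to bind rhodopsin's sorting signal, read 1350.0, 1310.2 and 1049.6 on a set with the _s_at suffix, whose probes can match more than 1 transcript. Arf5 read 2876, 1808 and 1874, highest in pool 1, and Arf3 read 1662.5, 1134 and 1502. Arf6, of the plasma membrane and endosomes, was above background in no pool with either probe set, at 146.2, 198.6 and 129.3 for the brighter.

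All 5 genes of the Arl family and its named partners were above background in every pool. Arl3, which releases lipid-modified proteins from their carriers in the photoreceptor cilium, read 1339, 1764 and 1976, lowest in pool 1. Arl2, its relative in tubulin folding, read 764.3, 435.8 and 831.1, lowest in pool 2. Arl2bp, an effector of both that is mutated in some retinitis pigmentosa, read 4546, 2025.5 and 3585, also lowest in pool 2. Among their cargo carriers, Unc119 read 13634, 9638 and 14316, and Pde6d read 2006, 1319 and 2204, both lowest in pool 2. With these counted, 5 of the 10 photoreceptor transport partners listed were lowest in pool 2, 3 in pool 1 and 2 in pool 3. Of all probe sets above background in all pools, 35.2% were lowest in pool 2. Arl14ep, not itself a GTPase, read 878.8, 650.2 and 1092, and its second set was above the limit in no pool.

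**Figure D3:**
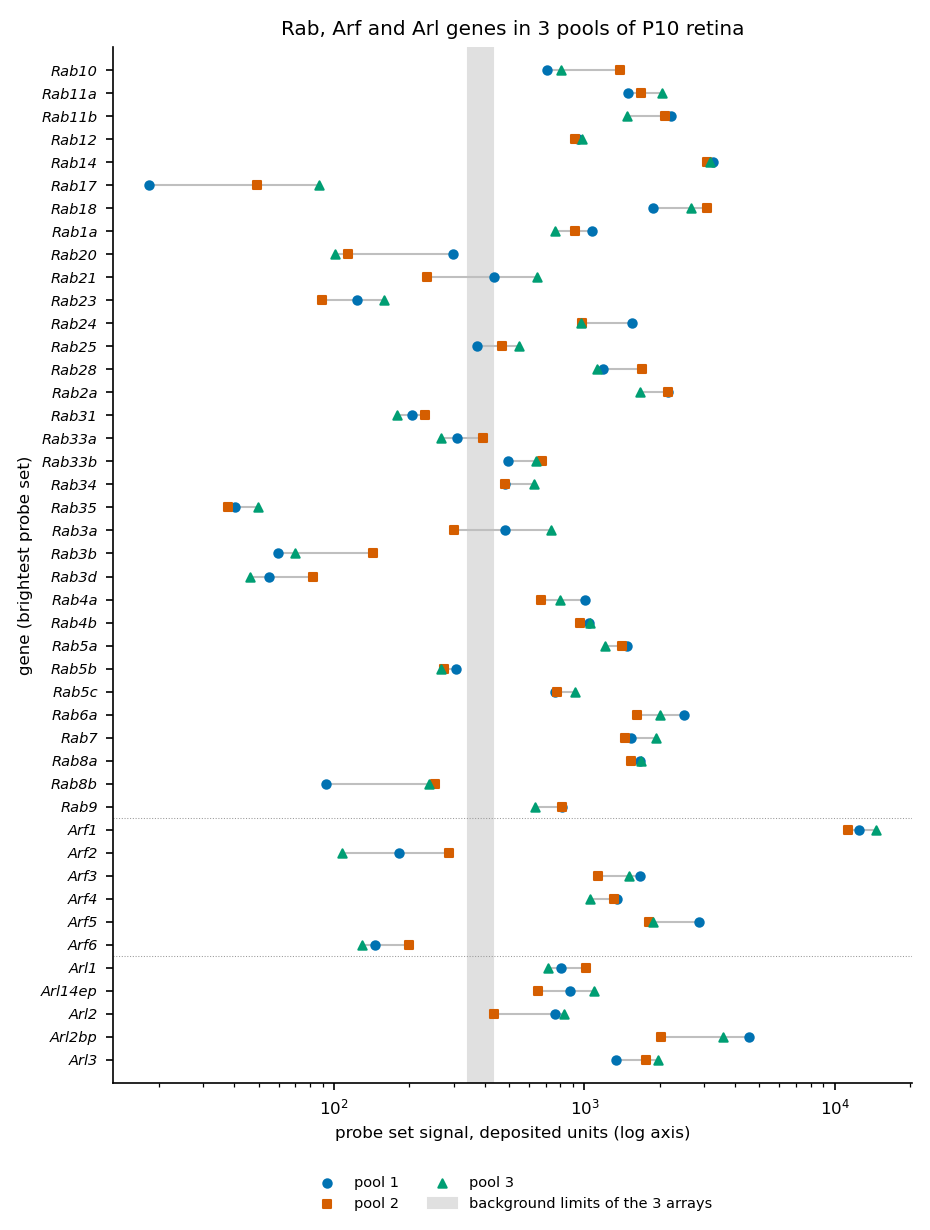
Signal of each Rab, Arf and Arl gene in the 3 pools (log axis, deposited units, brightest probe set), with the grey band spanning the background limits of the arrays. Rab12, Rab14 and Rab8a show nearly coincident pools, whereas the pools lie further apart for Rab3a, Rab21, Arl2 and Arl2bp, with pool 2 (square) lowest. For Rab3a and Rab21, pool 2 was not above its limit.

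The COPI coat was measured nearly whole, with 6 of 7 genes above background in all pools. Copa read 2835, 2676 and 2052, Cope read 2069, 1660.2 and 2052, and Copz1 read 1266, 1399 and 1606. Copg1 had both of its sets above background in every pool, at 1042, 707.2 and 1087 and at 833.2, 1005 and 803.7, so that pool 2 was lowest in the first set and highest in the second. Copb2 read 2085, 3212 and 2164 and Copb1 read 635.3, 965.5 and 422.1, both highest in pool 2. These are subunits of the same complex, and their pools do not follow a common order.

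COPII and the other Sec proteins had 15 of 19 genes above background in all pools and 3 in none. Sec13, of the outer COPII cage, read 1501, 1309 and 1239, and Sec23a, of the inner coat, read 1901, 1948 and 2314.5 with its brighter set. Sec23b, its close relative, read 1082, 1191.5 and 893.4, and its second set was above the limit in no pool. Sec22b, a SNARE between endoplasmic reticulum and Golgi, read 1078, 1201 and 1296. The translocon, through which new proteins enter the endoplasmic reticulum, was represented by Sec61a1 (2697, 2134 and 2585) and Sec61b (2133, 1880.2 and 2149), and Sec62 read 456.9, 672.7 and 549.5. Not all names here mean coat proteins: Sec11a belongs to the signal peptidase and Sec14l1 to the lipid-binding Sec14 family. Vps72, likewise, is a subunit of a chromatin remodelling complex, and it read 2052, 1504 and 1183.5.

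Clathrin adaptors had 12 of 19 genes above background in all pools and 3 in none. Ap2m1, the cargo-binding subunit of the endocytic AP-2 complex, read 10061, 8729 and 10974 with its brighter set. Its second set read 307.8, 413.6 and 313.0 and was above the limit in pool 2 only. Ap2a1, 1 form of the alpha subunit, read 375.9, 501.1 and 733.1 and missed the limit in pool 1. Ap2a2, another form of it, was above background in every pool with both of its sets. Ap2s1, the small subunit of the same complex, was above the limit in no pool with either set (87.9, 187.7 and 130.2 for the brighter). Ap3b1 and Ap3d1, of the complex that sorts to lysosome-related organelles, read 1037.5, 1093 and 1448 and 1816, 2028 and 1881. Ap1g1, of the trans-Golgi AP-1 complex, read 499.7, 764.1 and 497.0 with its brightest set, and its other 2 sets were above background in no pool. Snap91, the neuronal clathrin assembly protein AP180, read 935.8, 1264 and 836.8.

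Vps genes had 14 of 19 above background in all pools and 2 in none. The retromer, which returns receptors from endosomes, was present with Vps35 at 2241, 2730 and 2442, Vps26a at 766.0, 888.1 and 681.2 and Vps29 at 1062, 1594 and 1477. Vps4b, of the ATPase that recycles ESCRT complexes, read 396.4, 487.2 and 360.8 and missed the limit in pool 1. Vps29, Vps72, Ap2s1, Ap2a2 and, further on, Rab10os were named after their values were seen.

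Spread between pools was near that of the array as a whole. For the 127 member probe sets with a mean signal over the mean limit, the median log2 SD was 0.27 and the median ratio of highest to lowest pool 1.44, against 0.26 and 1.41 for the 4643 such sets on the array. When those sets were cut by signal into 4 groups of about equal size, the brightest group had a median SD of 0.22 for its 36 members and 0.23 for all, and the dimmest had 0.34 for its 26 members and 0.29 for all. Below the limit, the median SD was 0.50 for 74 member sets and 0.64 for all 7779. Each gene's log2 signal was set against its own 3-pool mean, and the median difference of the 107 member genes above background on average was 0.032, -0.0011 and 0.0030 in pools 1 to 3, against 0.030, -0.0099 and -0.013 for all 3742 such genes. Of the families with at least 3 such genes, those with a median beyond 0.25 in either direction were the Arl family (5 genes, -0.39 in pool 2), the Rab partners (3 genes, -0.31 in pool 2), the vesicle SNAREs (3 genes, -0.30 in pool 1) and SNARE disassembly (3 genes, 0.28 in pool 2 and -0.27 in pool 3). The Rab partner median in pool 2 was the value of Rab10os (519.4, 379.5 and 524.8), whose name marks an opposite-strand transcript. The 23 Rabs lay at 0.038, -0.043 and 0.046.

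**Figure D4:**
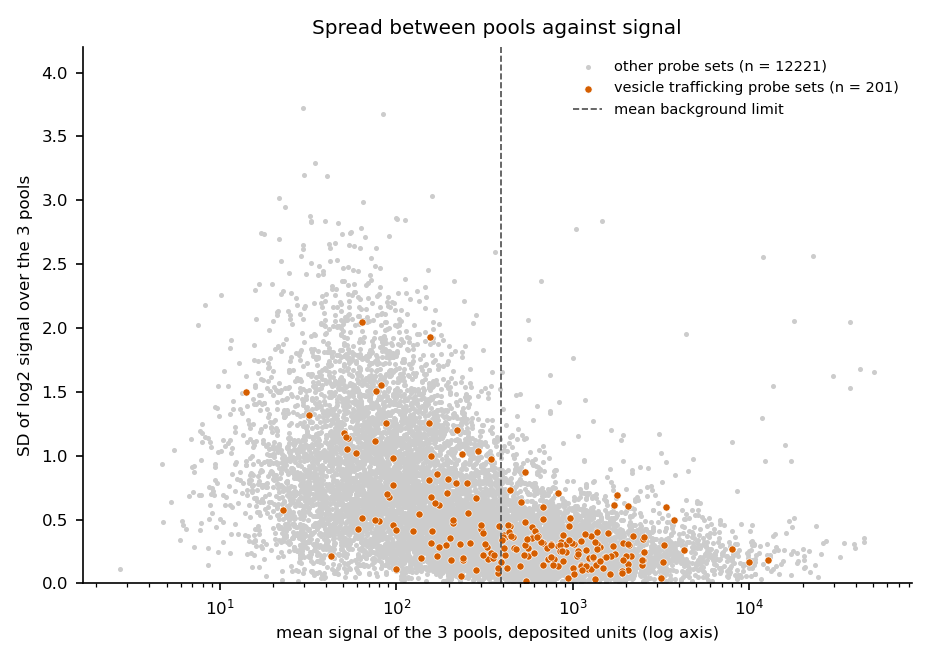
SD of log2 signal over the 3 pools against mean signal (log axis) for each probe set, members in orange over the other non-control sets in grey, with the mean background limit as a dashed line. Member points lie within the grey cloud on either side of the limit, with a median SD of 0.27 to its right.

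Pool order among members was spread over the 3 pools. Of the 108 member probe sets above background in all pools, 32 were lowest in pool 1 (29.6%, against 26.1% of all 3836 such sets), 36 in pool 2 (33.3% against 35.2%) and 40 in pool 3 (37% against 38.7%). Highest in pool 1 were 30 (27.8% against 35.4%), in pool 2 were 41 (38% against 33.5%) and in pool 3 were 37 (34.3% against 31.1%).

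Probe sets of the same gene could disagree, both in passing the limit and in the order of the pools. Of the 43 member genes with several probe sets, 12 (27.9%) had a set above background in all pools and another above it in none, against 28.8% of the 2073 such genes on the array. They included Vps35 (28.7, 106.1 and 25.6 for the dim set), Rab2a (14.1, 3.3 and 24.6 against 2155, 2162 and 1672 for the bright one), Rab1a (9.3, 55.2 and 32 against 1069, 917.6 and 759.4), Copz1, Rab33b and Arf3. Of the 13 genes with at least 2 sets above background in all pools, 0 had the same order of the pools in the brightest and second set, against 29.4% of the 310 such genes on the array. Rab6a and Sec61a1, for example, were lowest in pool 2 in the brighter set and highest there in the second. Second sets are not shown for every named gene. Ap2a2, an alpha subunit of the AP-2 complex, was highest in pool 3 in both sets, at 2675, 3330.2 and 5275 and at 954.8, 944.5 and 1417.

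Differences over 2-fold between pools were few. Among the 127 member probe sets over the limit by their mean, 9 (7.09%) had a range over 1 log2 unit, against 11.3% of all 4643, and each belonged to a different gene. Pool 2 was lowest in 7 of the 9, a share of 77.8% against 43% of the 523 such sets on the array, and pool 3 was highest in 5, a share of 55.6% against 38.2%. Nsf ranged over 2.19-fold, Sec16a, a scaffold of endoplasmic reticulum exit sites, over 2.20-fold at 2293, 1197 and 2635, Sec14l1 over 2.39-fold at 2273, 952.1 and 2096, and Arl2bp over 2.24-fold. In these 4 genes pools 1 and 3 lie near each other and pool 2 lies below both. Rab3a, Rab21, an endosomal Rab at 437.0, 234.6 and 644.2, and Stx2, a plasma membrane syntaxin at 534.2, 248.9 and 816.8, were not above background in pool 2, so their ranges are at least 1.83-fold, 1.61-fold and 2.04-fold. Sec11a, the signal peptidase subunit, went the other way with a 2.59-fold range at 656.1, 1299.8 and 500.9, as did Copb1 with 2.29-fold, both highest in pool 2 and lowest in pool 3.

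These counts rest on single pools. Without pool 2, 0 of 121 member probe sets had a range over 1 log2 unit (against 4.63% of the array's sets above background on average), without pool 3 there were 2 (4.32%) and without pool 1 there were 8 (6.75%), where a range over 2 arrays is smaller by construction. With the background limit at the 80th percentile the count was 15. Lens genes had the same low pool: 12 of 12 were lowest there and highest in pool 3. Red blood cell genes were lowest in pool 2 in 5 of 5, with summed signals of 22011, 4684 and 15167, but 3 of the 5 were above background in no pool. Ganglion cell genes were lowest in pool 2 in 4 of 5, Müller glia genes in 4 of 8 and endothelial genes in 4 of 11. For amacrine and horizontal cell genes the count was 3 of 10, and for bipolar genes 0 of 4. It was 4 of 16 for photoreceptor, 2 of 7 for pigment epithelium and 1 of 9 for microglia genes. These counts include genes above background in no pool, among them 7 of the 11 endothelial genes. Of all probe sets above background in all pools, 35.2% were lowest in pool 2. Photoreceptor genes differed in their order, with summed signals of 91789, 97070.0 and 136578 and a median shift of -0.24, -0.054 and 0.37 on the log2 scale. The part of lens, blood, other cell types or RNA quality in the 9 ranges was not tested. Sec14l1's second set, at 512.2, 338.9 and 531.1, was also lowest in pool 2, while Rab3a's second set was not.

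**Figure D5:**
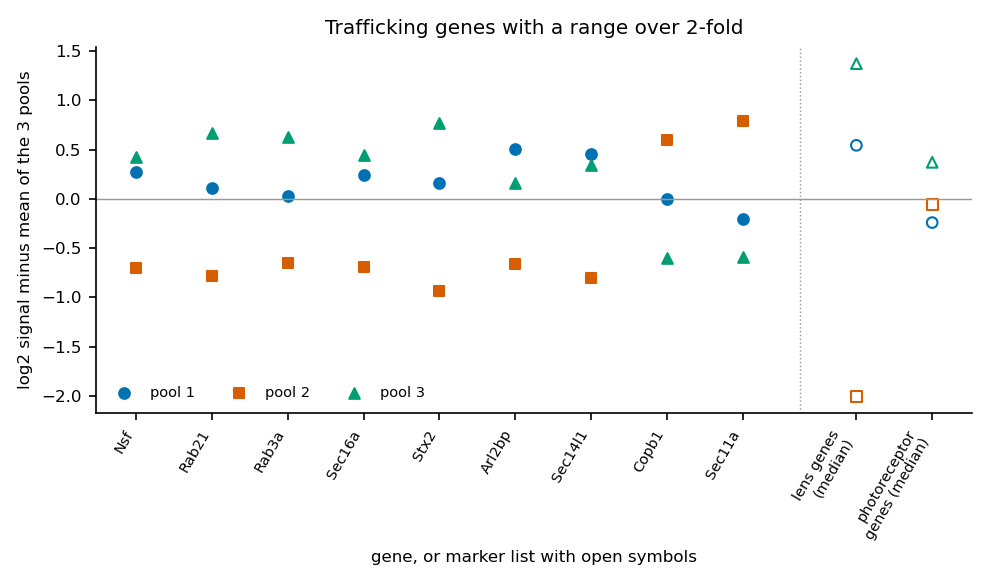
Log2 signal minus the mean of the 3 pools for the 9 member genes with a range over 1 log2 unit (filled symbols), and the median of the same quantity over the lens and photoreceptor genes above background on average (open symbols). Pool 2 (square) is lowest for 7 of the 9 genes and highest for Copb1 and Sec11a, and it lies at -2.00 for the lens genes.

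The promoters of 4 members are shown to set genes that were low in pool 2 (Nsf and Sec16a) beside genes that were high there (Copb1 and Sec11a). Each is the stretch of 250 bases before the RefSeq transcript start in GRCm38.p6, written 5′ to 3′ in the gene's direction. Capitals mark the motifs found on either strand: in Nsf an E-box (CACGTG), and in the others GC boxes (GGGCGG or its complement CCGCCC), the element bound by Sp1-type factors. The Nsf promoter lies at chr11:103954057-103954306 on the minus strand, that of Sec16a at chr2:26445217-26445466 on the minus strand, that of Copb1 at chr7:114254681-114254930 on the minus strand and that of Sec11a at chr7:80947551-80947800 on the minus strand.
Nsf: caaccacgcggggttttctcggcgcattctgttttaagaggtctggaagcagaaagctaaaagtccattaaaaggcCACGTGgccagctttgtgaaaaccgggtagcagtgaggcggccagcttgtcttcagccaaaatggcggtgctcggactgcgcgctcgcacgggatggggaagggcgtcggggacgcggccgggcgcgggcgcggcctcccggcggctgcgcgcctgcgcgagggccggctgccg
Sec16a: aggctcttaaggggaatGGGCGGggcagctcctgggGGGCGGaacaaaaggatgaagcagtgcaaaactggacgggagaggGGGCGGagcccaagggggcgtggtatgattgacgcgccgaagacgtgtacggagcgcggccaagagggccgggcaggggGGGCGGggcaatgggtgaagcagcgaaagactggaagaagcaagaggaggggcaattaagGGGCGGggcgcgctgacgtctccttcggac
Copb1: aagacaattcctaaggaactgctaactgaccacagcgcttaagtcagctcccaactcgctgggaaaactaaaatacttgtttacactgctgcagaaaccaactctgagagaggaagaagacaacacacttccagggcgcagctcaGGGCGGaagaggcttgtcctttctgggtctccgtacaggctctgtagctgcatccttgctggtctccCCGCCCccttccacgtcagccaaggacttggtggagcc
Sec11a: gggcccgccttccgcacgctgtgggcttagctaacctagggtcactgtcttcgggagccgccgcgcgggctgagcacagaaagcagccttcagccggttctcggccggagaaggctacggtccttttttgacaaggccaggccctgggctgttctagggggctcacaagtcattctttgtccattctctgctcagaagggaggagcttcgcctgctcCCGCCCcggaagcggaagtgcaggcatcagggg

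The Sec16a stretch holds 5 GC boxes, that of Copb1 holds 2 and that of Sec11a holds 1, and no such box was found in that of Nsf. None of the 4 holds the core of the photoreceptor factor Crx (TAATC, or GATTA on the other strand), a cyclic AMP element (TGACGTCA) or a TATA box (TATAAA). GC boxes were thus found in genes low and in genes high in pool 2. With a box in 52.8% of the promoters of genes on the array, these 4 cannot decide whether boxes go with the difference between pools. Of other genes low in pool 2, the 1 stretch listed for Arl2bp held 0 GC boxes, and Sec14l1 held 2 in 1 listed promoter and 0 in the other. Whether a listed start is the one used in retina was not tested. Promoters of Rab3a, Rab21 and Stx2, also low in pool 2, are not described here. Promoters were listed for 130 of the 153 member genes, 161 in all. A GC box was found in 63.4% of these, in 52.8% of the 8408 promoters of genes on the array and in 32.7% of all 32851 promoters in the table. The Crx core was found in 6.83%, 14.8% and 19.8%, the E-box in 14.9%, 8.22% and 6.02%, the TATA box in 4.35%, 8.93% and 12.4% and the cyclic AMP element in 3.11%, 2.21% and 1.55%. Members above background in all pools and in none held GC boxes in 61.2% and 66.7% of their promoters. The median GC content of the stretch was 60.8% for members and 58.8% for genes on the array. A match describes letters in the window, not a bound site.

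The rest of the pathway was measured through lists of genes that the name rule does not take, apart from Rab3ip. Of 11 active zone and priming genes, 8 were above background in all pools. Among them was Ctbp2 (3282, 3325 and 3728), whose products include the ribbon protein Ribeye. Which Ctbp2 product the set reads was not tested. Others were Unc13b (765.0, 921.7 and 855.6) and Pclo (687.4, 774.1 and 621.5). Bsn, its partner at the ribbon, was above the limit in no pool. The complexins, which clamp and promote SNARE fusion, differed from each other: Cplx1 read 891.0, 212.6 and 1393, lowest in pool 2, where it was not above background, and Cplx2 read 944.0, 1905.5 and 1501, highest in pool 2. In the whole list 4, 4 and 3 genes were lowest in pools 1 to 3. Of 12 synaptic vesicle genes, 8 were above background in all pools, with Syp, synaptophysin, at 1687, 1151.5 and 1046. Of 17 endocytosis genes, 11 were, with the clathrin heavy chain Cltc at 4555, 4603 and 5225 and dynamin Dnm1 at 5707, 3223 and 6458. The shares for Rab and Arf regulators (11 of 19), Golgi tethers and cargo receptors (15 of 29), exocyst, retromer and ESCRT partners (11 of 18) and photoreceptor transport partners (6 of 10) stand beside the 37.6% of all named genes. Gdi2, which extracts Rabs from membranes, read 3341, 3334 and 3427.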

How the data were processed

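RNA from 3 retinal pools was measured on Affymetrix U74Av2 arrays. The deposited table gives a linear intensity per probe set, 12488 in all. The authors' summarisation and scaling steps were not given in the sources used here, and no detection call comes with it. The mean after trimming 2% at each end was 500.2, 500.2 and 500.3, within the 5% tolerance set for using values as deposited. The 66 control sets were used only for end ratios. Names come from GEO's platform annotation: 10833 sets have 1 symbol, 396 several (2 of these include a matching symbol and were left out) and 1193 none here, and all 153 member symbols equal those in RefSeq. RefSeq gives 2 of the member genes as not protein coding. Values below 1 were set to 1 before log2. Python 3.11.15, pandas 2.3.3, numpy 2.4.6 and scipy 1.17.1 were used. On 12422 simulated sets, with noise far below the spread seen here, the range call took all 200 bright sets raised beyond its threshold and no other. This checked the code only and does not measure the accuracy of the call on these arrays.

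Named genes are well-known members from a written list, those above background on average with a range over 1 log2 unit, the 5 of smallest spread, and those with 1 set above background in all pools and another in none. Members and lists were chosen with earlier results of these data known. Alternatives were other percentiles, median or quantile scaling, averaged or plain _at sets, a floor of 50, core families only, and leaving out each pool. The number of arrays limits the precision.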

Additional observations from a re-analysis of the deposited data

How the results depend on the processing

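With the background limit at the 80th percentile, 23 genes were above it in no pool, against 39, and 15 probe sets had a range over 1 log2 unit, against 9. The counts of genes above background in all pools ran from 80 (95th percentile) to 114 (80th percentile) around 94, and no other alternative moved a count by more than 1.5 times, apart from leaving out a pool. Without 1 pool, 0 to 8 probe sets had a range over 1 log2 unit, and the median SD fell from 0.272 to between 0.195 and 0.231. Ranges over fewer arrays are smaller by construction. Under median scaling and quantile normalization all 9 genes with a range over 1 log2 unit kept it, and averaging probe sets took Sec14l1 below it. Of the 80 named genes, the log2 range moved by less than the gene's SD in 74 under median scaling, 77 under quantile normalization, 60 with averaged probe sets, 80 with a floor of 50, and 58, 39 and 58 without pools 1, 2 and 3. Without pool 2 it moved further in the other 41 and was smaller in 40 of these.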
